A study of Mus musculus with 2 samples.

Results

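The 10 genes described here encode histone chaperones, their partners and the chromatin protein DEK. They are *Dek*, *Dnajc9*, *Nasp*, *Asf1a*, *Asf1b*, *Chaf1a*, *Chaf1b*, *Slbp*, *Ssrp1* and *Supt16*, and all 10 were found, with 1 row each, among the 10666 genes of the expression table. They were chosen by their values along the cell-cycle position in these same cells, with earlier results known, so what follows is a description and carries no test. The data are single-cell RNA-seq of 2 replicate cultures of neurospheres, free-floating spheres of cultured neural stem and progenitor cells, from the dorsal telencephalon of wild-type C57BL/6 mice at embryonic day 14.5, grown with 10 ng/ml EGF and 10 ng/ml bFGF. Both cultures belong to 1 condition. Culture 1 held 5748 cells and culture 2 held 7057 cells, with a median of 19477 and 14637 total UMIs per cell, and 48 cell barcodes occurred in both. Of the forebrain progenitor markers among the rows used here, *Fabp7*, which encodes a fatty acid binding protein of radial glia, had a value in 100% of the cells of culture 1, and *Vim* in 99.2% and 99.9%. *Pax6* had a value in 21.1% and 23.1%, the neuroblast gene *Dcx* in 7.34% and 1.56%, and of the oligodendrocyte progenitor genes *Olig2* in 97.3% and 91.9%, *Cspg4* in 11.8% and 13.7% and *Pdgfra* in 8.77% and 1.81%.

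A cell that copies its DNA must also double its histones. New histones H3 and H4 are carried from the cytosol by NASP, with the J-domain protein DNAJC9 as a co-chaperone that recruits HSP70, and are handed to ASF1A or ASF1B. ASF1 passes them to the complex CAF-1, whose large subunits are encoded by *Chaf1a* and *Chaf1b* and which sits on the PCNA clamp behind the replication fork. FACT, made of SSRP1 and SPT16 (*Supt16*), takes H2A and H2B off nucleosomes and puts them back, in replication and in transcription. SLBP binds the stem-loop that ends the mRNAs of replication-dependent histones and is needed for their processing and translation. DEK binds DNA and chromatin, is abundant in dividing cells and has been described as a chaperone of the variant H3.3.

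In GRCm38, the build of the files, the GENCODE vM21 annotation places *Dek* at chr13:47084775-47106201, *Nasp* at chr4:116601052-116627941, *Slbp* at chr5:33634952-33652574, *Dnajc9* at chr14:20384638-20388910 and *Supt16* at chr14:52160414-52197416, all on the minus strand. *Asf1a* lies at chr10:53596757-53609225, *Asf1b* at chr8:83955507-83970197, *Chaf1a* at chr17:56040439-56072289, *Chaf1b* at chr16:93883901-93906115 and *Ssrp1* at chr2:85037234-85047109, all on the plus strand. The values are given per gene, from spliced transcripts in 3' libraries, and do not separate isoforms.

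The cell-cycle position is an angle from 0 to 2π, deposited for each cell. Its circle was divided into 8 arcs of 0.25π. By the deposited Seurat stages, S was the most frequent stage from 0.25 to 1π in both cultures (60.2% to 99.2% of the cells of those arcs), G2M from 1 to 1.5π (91.8% to 99.1%) and G1 from 1.75 to 2π (99.9% and 99.3%). The known cell-cycle genes lay along the circle in the order of their roles. The paper derives the position from cell-cycle genes of these same cells, so that order may be partly built in. The lines of *Ccne2*, the cyclin of S-phase entry, had their maxima at 0.655π and 0.620π in cultures 1 and 2, those of the replication helicase gene *Mcm6* at 0.705π and 0.660π and those of the clamp gene *Pcna* at 0.765π and 0.740π. Topoisomerase *Top2a* followed at 1.03π and 0.95π, the proliferation marker *Mki67* at 1.16π and 1.09π, and *Cdc20*, the activator of mitotic exit, at 1.34π and 1.32π.

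All 10 genes had their highest mean between 0.5 and 1π, but they differed widely in how much of their variation followed the position. A value is the authors' normalized expression on a linear scale, levels below are means of log2(value + 1) unless said otherwise, and R² is the share of the variance of log2(value + 1) explained by a periodic loess line, a smooth curve that closes on itself. The threshold, an R² of 0.05 or more in each culture, was reached by 8 of the 10 genes, where 416 of all 10666 genes (3.90%) reached it; since position-dependence chose the genes, nothing is read from that contrast. *Dek* had the highest R² of the members in culture 2, at 0.475, and 0.533 in culture 1, ranks 24 and 26 of all genes. *Nasp* had 0.536 and 0.314, *Dnajc9* 0.428 and 0.317, *Chaf1b* 0.373 and 0.285, *Chaf1a* 0.289 and 0.318, and *Asf1b* 0.270 and 0.245. *Ssrp1* had 0.225 and 0.127. *Slbp*, the member just inside the threshold, had 0.133 and 0.0963. *Supt16*, just outside, had 0.0909 and 0.0441, and *Asf1a* had 0.0186 and 0.0150. The R² was higher in the more deeply sequenced culture 1 for 9 of the 10 genes, with *Chaf1a* the exception, and the part of depth in that was not tested. A gene with few reads has a lower R² than a well-read gene with the same curve, so the R² values do not rank the genes by the size of their change.

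**Figure D1:**
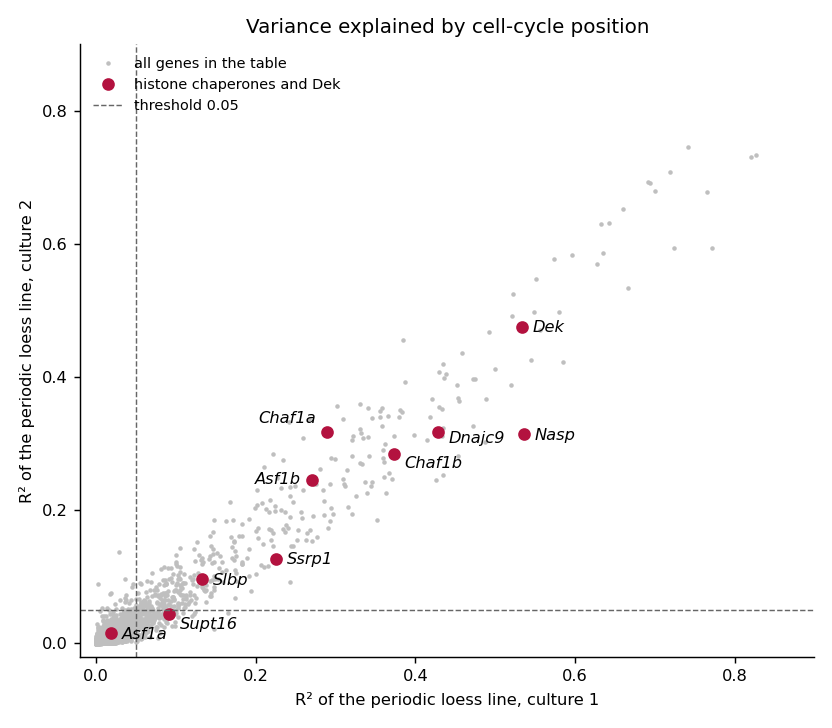
R² of the periodic loess line in culture 1 (x axis) against culture 2 (y axis), no unit, for all 10666 genes (grey points) and the 10 members (red points, named), with dashed lines at the threshold of 0.05. *Dek* stands far along the diagonal at 0.533 and 0.475, *Nasp* lies below it at 0.536 and 0.314, *Supt16* passes in culture 1 alone and *Asf1a* lies below the threshold in both, at rank 1068 of all genes by the lower of its R² values.

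Among the 10 genes, *Dek* had the largest range over arcs on this log2 scale. In culture 1 its mean was 1.23 from 0 to 0.25π, 1.97 to 0.5π, 2.34 to 0.75π, 2.63 to 1π, 2.25 to 1.25π, 1.34 to 1.5π, 0.93 to 1.75π and 0.71 to 2π. In culture 2 the same arcs gave 1.32, 2.20, 2.63, 2.96, 2.35, 1.71, 1.23 and 0.80. Both cultures thus had the highest arc from 0.75 to 1π and the lowest from 1.75 to 2π, a difference of 1.92 and 2.16 on the log2 scale (mean 2.04 ± 0.169, SD, n = 2 cultures). On the linear scale the mean value was 5.73 against 0.880 in culture 1 and 7.53 against 1.08 in culture 2, or 6.51-fold and 7.0-fold. Even where it was lowest, *Dek* had a value in 57.2% and 52.6% of the cells, and in the highest arc in 99.1% of the cells of either culture. Its line was at its maximum at 0.820π and 0.770π, behind *Pcna* and ahead of *Top2a* in both cultures. That order is given for the main fit only. With a narrower smoothing span of 0.1 the maximum of *Dek*, as the mean of the cultures, moved from 0.795π to 0.905π.

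**Figure D2:**
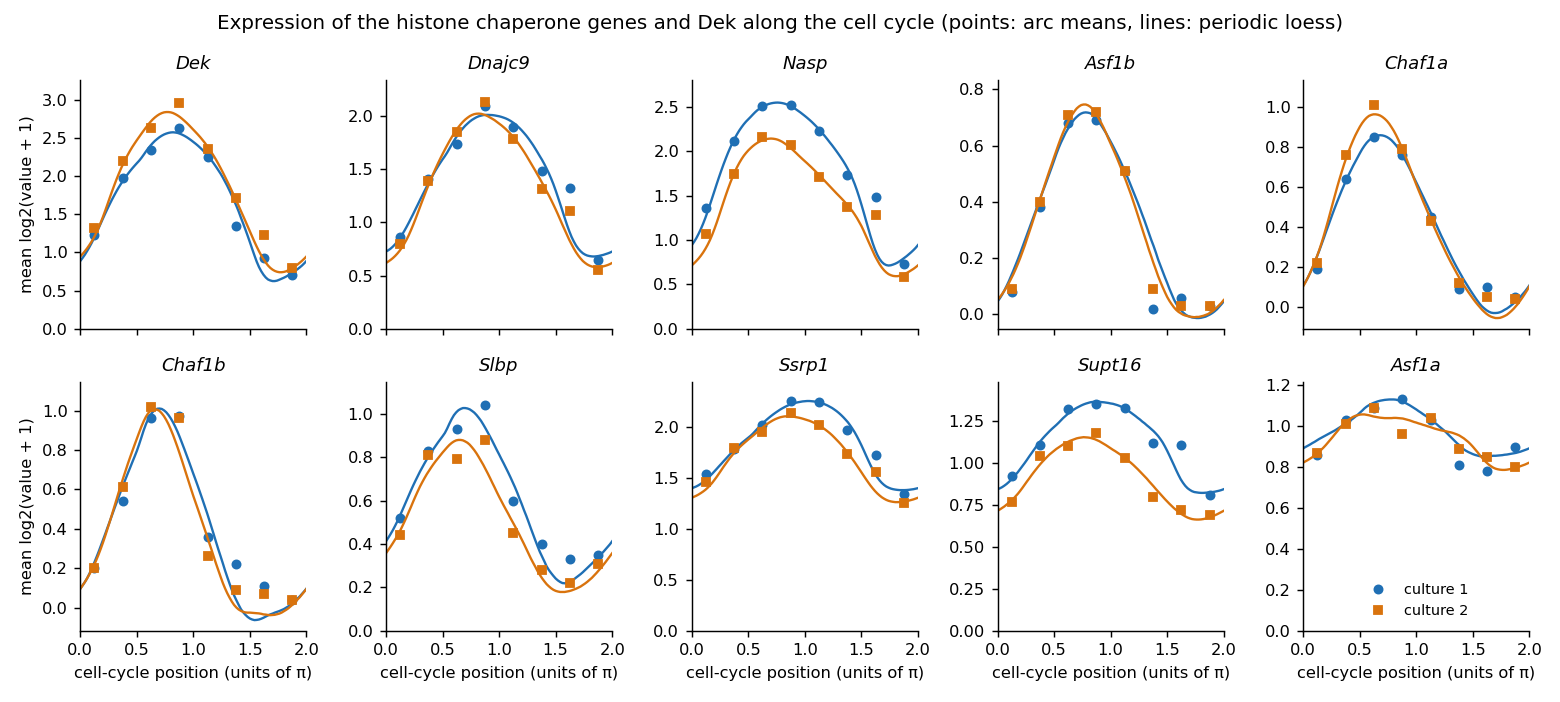
Mean log2(value + 1) (y axis, from 0 or just below) against the cell-cycle position in units of π (x axis) for each of the 10 genes, with arc means as points and periodic loess lines, culture 1 in blue circles and culture 2 in orange squares. The highest arc lies between 0.5 and 1π for each gene; *Asf1b*, *Chaf1a* and *Chaf1b* come down to about 0 (their lines dip to between -0.01 and -0.06, which is a property of the smoother), *Ssrp1* never falls below 1.25 in any arc, and *Asf1a* is nearly flat.

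*Nasp* and *Dnajc9*, which act on H3 and H4 before they reach ASF1, had broad curves, though not only they did. The line of *Nasp* lay above the middle of its range over 1.22π and 1.13π, and that of *Dnajc9* over 1.12π and 1.06π. The same stretch was 1.14π and 1.07π for *Dek* and 1.08π and 1.09π for *Ssrp1*. *Nasp* had a mean of 2.51 from 0.5 to 0.75π and 2.52 from 0.75 to 1π in culture 1 against 0.73 from 1.75 to 2π, and 2.16, 2.07 and 0.58 in culture 2. The range over arcs was 1.79 and 1.58. *Dnajc9* had arc means of 0.65 to 2.09 in culture 1, and of 0.55 to 2.13 in the other culture, a range of 1.44 and 1.58, with its highest arc from 0.75 to 1π and its lowest from 1.75 to 2π in both. In linear values *Dnajc9* was 4.77-fold and 5.48-fold higher in that arc than in the last one, and *Nasp* 5.95-fold and 4.91-fold. Neither gene was confined to S: a value of *Nasp* was found in 61.7% and 37.7% of the cells from 1.75 to 2π and one of *Dnajc9* in 58.0% and 35.1%. Both still stood well above that level late on the circle. From 1.5 to 1.75π, where M.G1 was the most frequent stage of the SchwabeCC method (82.6% and 59.2% of the cells with a stage), *Nasp* was at 1.49 and 1.28 and *Dnajc9* at 1.32 and 1.11, and one arc later they were at 0.73 and 0.58 and at 0.65 and 0.55. The step across 1.75π was the largest drop between neighbouring arcs for both genes in both cultures. The arc before it held 64 cells in culture 1 and 189 in culture 2. Seurat's most frequent stage in that arc was G1 in culture 1 (73.4%) and G2M in culture 2 (51.3%).

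The CAF-1 subunits and *Asf1b* were close to 0 from 1.75 to 2π and had a value in 50.2% to 79.8% of the cells from 0.75 to 1π. *Chaf1a* had a mean of 0.85 and 1.01 from 0.5 to 0.75π and of 0.05 and 0.04 from 1.75 to 2π. *Chaf1b* had 0.96 and 1.02 from 0.5 to 0.75π, 0.97 and 0.96 from 0.75 to 1π, and 0.04 in the last arc of either culture. *Asf1b* had 0.69 and 0.72 from 0.75 to 1π and 0.03 in the last arc of either culture. The share of cells with a value shows the same without the scale of the values. For *Asf1b* it was 62.4% of cells (exact binomial 95% interval 59.3% to 65.4%) from 0.75 to 1π and 2.79% from 1.75 to 2π in culture 1, and 50.2% and 2.13% in culture 2. For *Chaf1a* the shares were 73.5% and 7.55%, then 65.2% and 3.97%. For *Chaf1b* they were 79.8% and 5.09%, then 55.9% and 2.95%. In linear values these arcs differed 31.5-fold and 28.2-fold for *Asf1b*, 18.2-fold and 25-fold for *Chaf1a*, and 28.1-fold and 28.3-fold for *Chaf1b*. The last arc is the most filled one, with 1789 and 3149 cells. Intervals cover counting error only, and free RNA, which could give values in cells that do not express a gene, was not measured, since the cultures hold no cell type known to lack these genes.

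**Figure D3:**
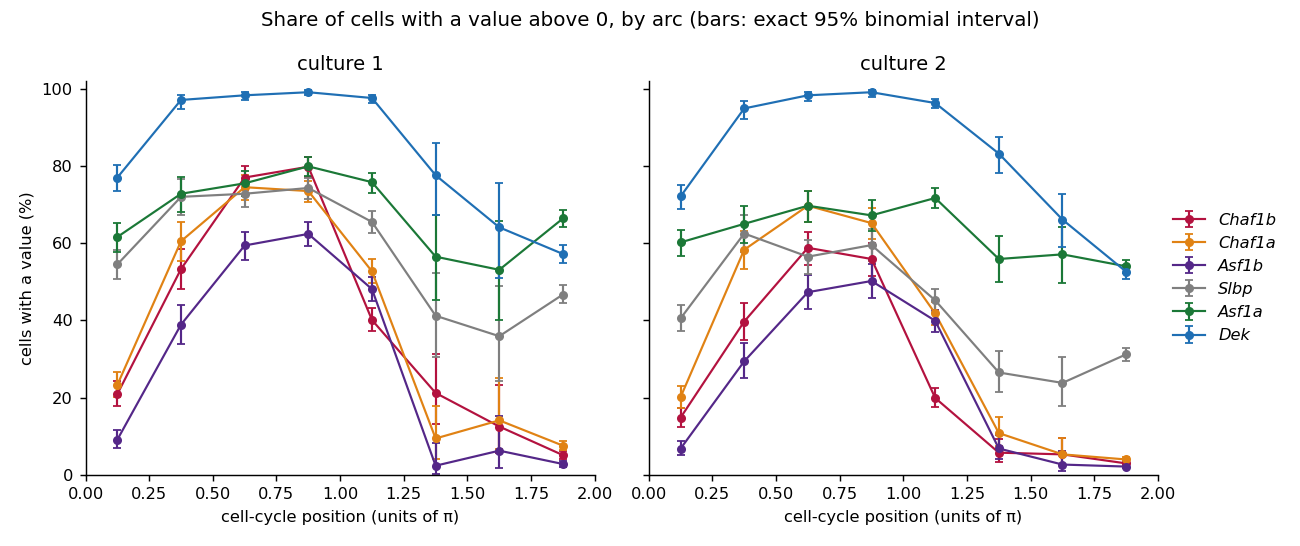
Share of cells with a value above 0 in percent (y axis) in each arc of cell-cycle position (x axis, units of π), culture 1 left and culture 2 right, for 6 genes in colour, with exact 95% binomial intervals as bars. *Asf1b*, *Chaf1a* and *Chaf1b* go from under 8% in the last arc to at least 50.2% at their highest, *Slbp* keeps 31.2% or more there, and *Asf1a* stays between 53.1% and 79.9% throughout. At the step across 1π *Chaf1b* comes down furthest of the 6.

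The paralogs *Asf1a* and *Asf1b* encode closely related forms of the same chaperone, and their profiles over 16 arcs correlated at r = 0.775 and 0.737. *Asf1a* had like values with *Chaf1a*, at 0.753 and 0.782. *Asf1a* was at 0.86, 1.03, 1.09, 1.13, 1.03, 0.81, 0.78 and 0.90 in the 8 arcs of culture 1 and at 0.87, 1.01, 1.09, 0.96, 1.04, 0.89, 0.85 and 0.80 in those of culture 2. Its range was 0.35 and 0.29, and the cultures did not share a maximum (0.775π and 0.530π, with the highest arc from 0.75 to 1π in one and from 0.5 to 0.75π in the other). Among cells with a value, the mean of *Asf1a* in culture 1 was 1.42 at its highest arc and 1.48 at its lowest, from 1.5 to 1.75π. In culture 2 these means were 1.56 and 1.48, the lowest arc being the last. The share of cells with a value was 79.9% against 53.1% in culture 1 and 69.7% against 54.0% in culture 2. Its small range thus lay mostly in the share of cells. *Asf1b* over the same arcs was at 0.08, 0.38, 0.68, 0.69, 0.51, 0.02, 0.06 and 0.03 in culture 1 and at 0.09, 0.40, 0.71, 0.72, 0.51, 0.09, 0.03 and 0.03 in culture 2. The arc from 1.25 to 1.5π in culture 1 held 85 cells, of which 2 had a value of *Asf1b*.

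The promoter windows of this pair are shown with those of *Chaf1a* and *Dek*, since these 4 genes include the flattest curve, curves that reach 0 and the curve with the widest range. The windows run from 250 bases before to 50 bases after the RefSeq start in GRCm38.p6 and are written in the direction of the gene. Capitals mark matches, on either strand, to the E2F-like letters TTCCCGC or TTGGCGC or TTCGCGC or TTGCCGC, to CCAAT, read as ATTGG on the other strand, and to TTTGAA, the letters of the cell-cycle homology region. Bases are counted from 0 at the start. For *Asf1a* and *Asf1b* the GENCODE gene given above begins inside the window, ahead of this RefSeq start. Some matches before the RefSeq start therefore lie inside that gene. No base of these windows belongs to matches of more than 1 of the 3 kinds.
Asf1a, chr10:53596711-53597010, plus strand: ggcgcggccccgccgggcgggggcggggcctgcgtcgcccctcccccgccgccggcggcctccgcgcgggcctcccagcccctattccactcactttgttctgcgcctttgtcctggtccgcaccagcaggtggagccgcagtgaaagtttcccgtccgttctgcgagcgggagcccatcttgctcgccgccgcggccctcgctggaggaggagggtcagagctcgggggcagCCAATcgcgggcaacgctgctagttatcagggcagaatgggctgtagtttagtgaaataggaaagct
Asf1b, chr8:83955444-83955743, plus strand: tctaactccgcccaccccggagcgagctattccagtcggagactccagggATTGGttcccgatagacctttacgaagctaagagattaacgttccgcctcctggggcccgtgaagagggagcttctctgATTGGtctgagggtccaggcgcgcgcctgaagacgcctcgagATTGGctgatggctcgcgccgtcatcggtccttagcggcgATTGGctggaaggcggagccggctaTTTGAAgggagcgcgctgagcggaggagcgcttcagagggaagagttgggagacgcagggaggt
Chaf1a, chr17:56040166-56040465, plus strand: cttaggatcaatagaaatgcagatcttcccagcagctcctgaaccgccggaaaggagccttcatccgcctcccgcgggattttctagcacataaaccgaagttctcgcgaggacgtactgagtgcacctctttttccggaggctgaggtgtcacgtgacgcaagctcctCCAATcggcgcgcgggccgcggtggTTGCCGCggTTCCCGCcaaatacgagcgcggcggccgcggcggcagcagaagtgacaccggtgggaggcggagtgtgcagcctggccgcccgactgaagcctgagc
Dek, chr13:47106172-47106471, minus strand: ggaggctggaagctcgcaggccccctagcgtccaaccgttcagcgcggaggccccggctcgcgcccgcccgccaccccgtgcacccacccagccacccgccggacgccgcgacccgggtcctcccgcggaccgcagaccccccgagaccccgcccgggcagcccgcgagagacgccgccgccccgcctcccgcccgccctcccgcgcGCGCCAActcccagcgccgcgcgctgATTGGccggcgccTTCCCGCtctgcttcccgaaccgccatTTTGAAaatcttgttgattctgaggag

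The *Asf1b* window held CCAAT 4 times, each on the opposite strand, at -200, -121, -79 and -39, and TTTGAA at -14, while that of *Asf1a* held CCAAT once, at -17. The *Chaf1a* window held TTGCCGC at -56 and TTCCCGC at -47, with CCAAT at -81. The *Dek* window held TTGGCGC on the opposite strand at -43, CCAAT on the opposite strand at -17, TTCCCGC at -4 and TTTGAA at 23. Windows were found for all 10 genes, with a second one for *Ssrp1*. E2F-like letters were in a window of 5 of them (*Dek*, *Dnajc9*, *Chaf1a*, *Chaf1b* and the second window of *Ssrp1*), where 9.57% of all 32851 windows and 17.5% of those of genes in the table hold them. CCAAT was in a window of 6 (37.4% and 37.7%) and TTTGAA in a window of 4 (17.9% and 11.8%). A match is a run of letters and not a measured binding site.

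The subunits of FACT, *Ssrp1* and *Supt16*, had shallow curves that stayed high past π. *Ssrp1* was at 1.34 from 1.75 to 2π and 2.25 from 0.75 to 1π in culture 1, and at 1.25 and 2.14 in culture 2, a range of 0.90 in either. The linear fold was 2.19 and 2.12. *Ssrp1* had a value in 85.2% and 68.2% of the cells in the last arc and in 98.5% and 94.3% from 0.75 to 1π. *Supt16* was at 0.81 and 1.35 in the same arcs of culture 1 and at 0.69 and 1.18 in those of culture 2, 1.89-fold and 1.84-fold in linear values. The profiles of both subunits over 16 arcs correlated with each other at r = 0.910 and 0.896 (arcs of 1 library share its cells and depth, so no p is given). Such an r was not particular to the complex. With *Dnajc9*, which is not part of FACT, *Ssrp1* had 0.954 and 0.964 and *Supt16* 0.924 and 0.916.

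The level of *Slbp* was low from 1.25π on. Its mean was 1.04 and 0.88 from 0.75 to 1π, 0.60 and 0.45 one arc later, 0.33 and 0.22 from 1.5 to 1.75π, and 0.35 and 0.31 from 1.75 to 2π, before 0.52 and 0.44 in the first arc. The lowest arc was the one from 1.5 to 1.75π in both cultures, though in culture 1 its 64 cells were level with the last arc (mean value 0.350 against 0.355); 7 of the 10 genes had their lowest arc from 1.75 to 2π in both. In linear values *Slbp* was 4.17-fold and 3.81-fold higher from 0.75 to 1π than in the last arc.

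The genes came down in an order of groups that held in the fits below. The order of their maxima, read gene by gene, was shared by the cultures apart from ties but changed at a span of 0.1. The maxima of the lines lay at 0.680π and 0.635π for *Chaf1a*, 0.695π and 0.650π for *Slbp*, 0.695π and 0.655π for *Chaf1b*, 0.755π and 0.700π for *Nasp* and 0.780π and 0.770π for *Asf1b*. *Dek*, at 0.820π and 0.770π, came next, then *Dnajc9*, at 0.895π and 0.815π, and *Ssrp1*, at 1.03π and 0.845π. The maximum was earlier in culture 2 for each of these 8 genes, by 0.0100π (*Asf1b*) to 0.185π (*Ssrp1*). Within each culture the order was the same apart from ties. These were *Slbp* and *Chaf1b* at 0.695π in culture 1, and *Asf1b* and *Dek* at 0.770π in culture 2. Neighbours lay close: as means of the cultures, each pair differed by less than the larger of its genes' shifts between cultures. With a narrower span of 0.1 the maximum of *Slbp* lay at 0.823π, behind those of *Nasp* and *Asf1b*. The mid-height of the line on its way down, halfway between its maximum and its minimum, was read as well. Its spread over the genes was wider than that of the maxima in culture 2 and similar in culture 1. This mid-height was passed at 1.12π and 1.05π by *Chaf1b*, at 1.18π and 1.09π by *Slbp* and at 1.18π and 1.12π by *Chaf1a*. *Asf1b* passed it at 1.28π and 1.23π and *Dek* at 1.39π and 1.35π. *Nasp*, at 1.45π and 1.40π, *Dnajc9*, at 1.49π and 1.42π, and *Ssrp1*, at 1.5π and 1.43π, were the last. Grouped this way after the values were seen, the order *Chaf1b*, *Slbp* and *Chaf1a*, then *Asf1b*, then *Dek*, then *Nasp*, *Dnajc9* and *Ssrp1* was found in 8 of 8 fits, the main one, a span of 0.1, a position rebuilt without any member and one with depth regressed out, in each culture. Gene by gene this order did not hold either. At a span of 0.1 in culture 1, *Ssrp1* came down at 1.49π, ahead of *Nasp* at 1.58π and *Dnajc9* at 1.65π. The groups and the single maxima are thus not compared by 1 rule. Over these fits the mid-height of the first 3 genes lay between 1.0π and 1.19π and that of the last 3 between 1.36π and 1.65π. Mid-heights beyond 1.25π lie where cells are few. The arc from 1.25 to 1.5π held 85 cells in culture 1 and 279 in culture 2, and the arc from 1.5 to 1.75π held 64 and 189. Each local fit took in 90% of a culture's cells, or 30% at a span of 0.1. The lines there thus rest largely on cells of neighbouring arcs. The fits of a culture also share its cells, so the 8 are not independent. On the way up, the mid-heights lay closer together, from 0.190π to 0.420π in the main fit.

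**Figure D4:**
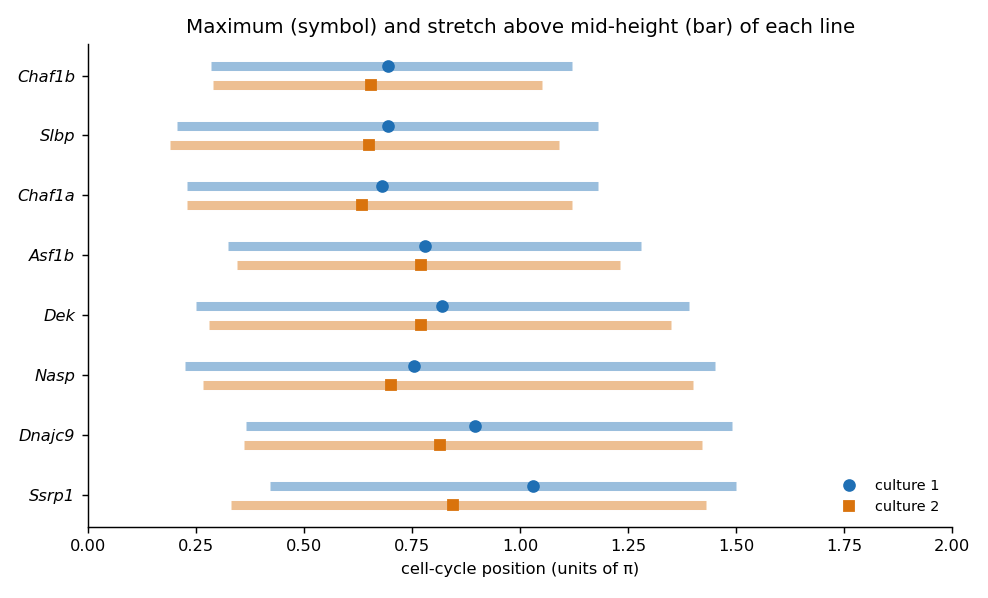
For the 8 genes past the R² threshold, the maximum of the periodic loess line (symbol) and the stretch of cell-cycle position over which the line lies above its mid-height (bar), in units of π on the x axis, for culture 1 (blue circle) and culture 2 (orange square). The left ends lie between 0.190π and 0.420π, while the right ends go from 1.05π for *Chaf1b* to 1.5π for *Ssrp1*.

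The arcs on either side of 1π, where Seurat's most frequent stage changes from S to G2M, show a related order without a fitted line. The mean value of *Chaf1b* from 1 to 1.25π was 31.4% and 21.2% of that from 0.75 to 1π. *Slbp* kept 47.6% and 40.0%, *Chaf1a* 54.1% and 49.8%, *Asf1b* 70.8% and 67.1%, and *Dek* 75.1% and 64.0%, so that *Asf1b* was below *Dek* in culture 1 and above it in culture 2. *Nasp* kept 80.5% and 76.3%, *Dnajc9* 85.4% and 75%, *Supt16* 96.9% and 84.1%, and *Ssrp1* 100% and 90.5%. *Asf1a*, with little variation along the circle, was at 88.3% and 108%. The cells with a value of *Chaf1b* made up 79.8% before and 40.1% after in culture 1, and 55.9% and 19.9% in culture 2, across this boundary, while those with a value of *Dnajc9* went from 98.8% to 96.4% and from 92.7% to 87.2%. Subunits of 1 complex, *Chaf1a* and *Chaf1b*, had profiles over 16 arcs that correlated at r = 0.95 and 0.949. *Chaf1a* had a like r with *Slbp*, which is not part of that complex (0.963 and 0.943). Relative to its own level before, *Chaf1b* was the lower of the CAF-1 pair from 1 to 1.25π in both cultures. From 1.25 to 1.5π, however, *Chaf1b* was at 20.3% and *Chaf1a* at 9.54% in culture 1, against 9.58% and 12.8% in culture 2. In that arc *Asf1b* was at 2.08% and 11.1% of its mean value from 0.75 to 1π, and *Dnajc9* at 61.6% and 52.2%.

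The total UMIs of the cells moved with the position too. The median was highest from 0.75 to 1π in culture 1, at 22967, and from 1 to 1.25π in culture 2, at 17813, and lowest from 1.25 to 1.5π, at 14111 and 11882. With log2 total UMIs and their square regressed out of each gene, 8 members still reached the R² threshold and none of their maxima moved by more than 0.0150π, and the same 8 reached it in the cells between 12000 and 20000 UMIs.

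The stage calls of SchwabeCC, which names 5 stages and left 2451 and 3151 cells without one, gave the following means. *Nasp*, *Chaf1a* and *Slbp* had their highest mean in G1.S in both cultures: *Nasp* was at 2.34 and 1.76 there and at 2.28 and 1.40 in S, *Chaf1a* at 0.75 and 0.72 against 0.65 and 0.48, and *Slbp* at 0.98 and 0.77 against 0.82 and 0.64. *Asf1b* was highest in S, at 0.75 and 0.55 against 0.50 and 0.39 in G1.S, and so was *Dnajc9*, at 1.87 and 1.49 against 1.61 and 1.40. In the Seurat stages, in contrast, *Dnajc9* was highest in G2M, at 1.93 and 1.71 against 1.76 and 1.68 in S, and so was *Ssrp1*, at 2.22 and 1.96 against 2.03 and 1.90. By SchwabeCC *Dek* was at 2.37 and 2.12 in S and at 2.18 and 2.11 in G1.S. *Chaf1b* was at 0.80 in S and 0.79 in G1.S in culture 1, and at 0.52 and 0.70 in culture 2, so its order depended on the culture. *Nasp*, *Asf1b*, *Chaf1a*, *Chaf1b* and *Slbp* are in the gene list of the stage caller cyclone, and *Nasp*, *Chaf1b* and *Slbp* in Seurat's S list, as installed here. *Dek*, *Dnajc9*, *Asf1a*, *Ssrp1* and *Supt16* are in none of these lists. Per the paper, SchwabeCC calls a stage from the mean expression of a gene list per stage, and those lists were not checked for members. A member in such a list would help to define the stage it is then high in.

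The genes whose profile over 16 arcs was most like that of a member, among genes past the R² threshold, are given by name. For *Dek* they were the deubiquitinase gene *Usp1* (r = 0.988 and 0.979) and the histone methyltransferase gene *Ezh2* (0.982 and 0.976). For *Dnajc9* they were *Rrm2*, a subunit of ribonucleotide reductase (0.975 and 0.986), and the PCNA-binding factor *Pclaf* (0.975 and 0.983). *Asf1b* was most like the checkpoint gene *Clspn* (0.981 and 0.982) and the condensin II gene *Ncapg2* (0.978 and 0.979). *Chaf1a* was most like the exonuclease gene *Exo1* (0.987 and 0.985) and the protease gene *Fam111a* (0.990 and 0.980), and *Chaf1b* like *Ccne2* (0.972 and 0.981) and *Fam111a* (0.971 and 0.981). *Slbp* had as its nearest *Atad5*, which unloads PCNA (0.972 and 0.966), and *Ccne1*, another cyclin of S-phase entry (0.969 and 0.962). *Nasp* had the splicing factor gene *Srsf7* (0.979 and 0.949) and the helicase gene *Mcm7* (0.961 and 0.942), and *Ssrp1* had *Lsm2*, of the RNA-binding LSm ring (0.965 and 0.953), and *Pclaf* (0.956 and 0.947). With *Dnajc9*, a member and so left out here, *Ssrp1* had r = 0.954 and 0.964, of which the lower is above that of both genes named for it. The fewest cells in any of the 16 arcs were 25 in culture 1 and 83 in culture 2.

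Of 28 other histone chaperones and carriers, all in the table, 9 passed the R² threshold, beside 3.90% of all genes, and the median of the lower R² of the cultures was 0.0155 over the list and 0.00150 over all genes. The acetyltransferase gene *Hat1*, whose enzyme acetylates new H4, had the largest R² of the list, at 0.415 and 0.305, with a maximum at 0.760π and 0.725π and a range over arcs of 1.51 and 1.59. *Mcm2*, whose protein also holds parental H3 and H4 at the fork, had 0.315 and 0.205 with a maximum at 0.715π and 0.655π, and *Mms22l*, a partner of the fork protein TONSL, 0.105 and 0.115 at 0.705π and 0.690π. *Anp32b*, of an acidic histone-binding family, had 0.344 and 0.237 at 0.965π and 0.905π. *Hjurp*, the chaperone of the centromeric H3 variant CENP-A, had 0.243 and 0.235 at 1.02π and 0.880π. *Nap1l1*, a chaperone of H2A and H2B, had 0.112 and 0.0670 at 0.795π and 0.700π, and *Set*, another histone chaperone, 0.135 and 0.0800 at 1.15π and 0.875π. The remodeller *Smarca5* had 0.0833 and 0.0513 at 1.01π and 0.945π. *Anp32e*, which removes the variant H2A.Z, was the only one of the 9 with maxima beyond 1.25π in both cultures, at 1.36π and 1.38π with an R² of 0.102 and 0.0963.

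Of 10 named genes of histone mRNA synthesis and processing, 8 were among the rows used here and 2 passed the R² threshold, beside 3.90% of all genes. *Casp8ap2*, which encodes FLASH, a factor of histone mRNA 3' end processing, had 0.145 and 0.121 with a maximum at 0.530π and 0.50π, ahead of each of the 8 members that reached the threshold in either culture. *Eri1*, a nuclease that trims the histone stem-loop, had 0.133 and 0.0852 at 0.725π and 0.670π. That lay between the maxima of *Slbp* and *Chaf1b* and that of *Nasp* in both cultures. None of the 4 kinase genes measured (*Tlk1*, *Tlk2*, *Csnk2a1* and *Csnk2a2*, whose kinases act on ASF1, DEK or FACT) reached it, and at the share over all genes a list this short need not hold any that does. Of the replication-dependent histone genes only *Hist1h2bc* and *Hist1h2be* were among the rows used here, and neither reached it. *Hist1h2bc* had an R² of 0.0417 and 0.0267, a range over arcs of 0.78 and 0.53 and maxima at 1.47π and 1.56π. *Hist1h2be* had a value in 2.45% and 1.64% of the cells. So few rows do not show how these mRNAs as a class follow the position.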

How the data were processed

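The study sequenced 2 replicate cultures on the 10x Chromium platform with 3' libraries (the labels and the paper give different kit versions). Per the paper's methods and the submitters' processing notes, the authors quantified spliced counts with alevin (Salmon 1.3.0) against GRCm38, removed cells with outlying total UMIs, numbers of genes, mitochondrial shares or doublet scores, removed mitochondrial and rare genes, and integrated the cultures with Seurat 3.2.2. The deposited expression values are a normalized signal on a linear scale. The deposited total UMIs are sums of estimated counts per cell. The authors' cell-cycle position and stages are other values of the same per-cell table; the position rests on these same cells, and which matrix gave it is not given in the sources used here. Position genes may include members, so it was also rebuilt without them. No further doublet removal was done here. Every per-sample column was mapped to a culture.

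Of the values of genes detected in 5% to 35% of cells, 92.0% in culture 1 and 92.5% in culture 2 lay within 0.05 of a whole multiple of a step of the gene. The step differed between the cultures by gene. Over 4367 such genes the ratio of culture 1 to culture 2 ran from 0.718 to 1.58 (5th to 95th percentile). For the members it came out at 0.588 (*Dnajc9*) to 0.967 (*Asf1a*). In well-detected members the step is loosely placed, since they had fewer whole multiples (19.5% for *Dnajc9* and 16.0% for *Ssrp1* in culture 1). Counts were therefore not used, thinning was not possible, and levels are compared within a culture only. Shares of cells with a value depend on depth.

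Values were transformed as log2(value + 1). Periodic loess lines (degree 2, span 0.3 of the tripled data, which is 90% of a culture's cells in each local fit) were fitted to all 10666 genes in each culture and read at 401 positions. Python 3.11.15, numpy 2.4.6, R 4.3.3, and the gene lists of scran 1.30.0 and Seurat 5.3.0 were used. Gene sets were the members, listed histone genes past the threshold, 6 cell-cycle genes and cell type markers. For each member past the threshold, the 2 nearest genes outside the members were added. Members and lists were chosen with earlier results of these data known. With 1 condition and 2 cultures no test was run, and the spread is that between cultures, which may be technical. The fit was tested on simulated data. Alternatives were other spans, 2 harmonics, other scales, thresholds and depths, a rebuilt position, a filter on detection and each culture left out.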

Additional observations from a re-analysis of the deposited data

How the results depend on the processing

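The number of members past the R² threshold was 8 with spans of 0.1 and 0.5, 2 harmonics, a pseudocount of 0.1, linear values, the position rebuilt without members, cells of 1 depth range, depth regressed out and rarely detected genes left out. It was 9 at a threshold of 0.02, where 8.0% of all genes passed, and 7 at 0.1, where 2.18% passed and *Slbp* joined *Asf1a* and *Supt16* below. Leaving out a culture gave 8 to 9: in culture 1 alone *Supt16* passed. With the share of cells with a value in place of the level, chosen after seeing the data, it was 7, with *Ssrp1* below as well. The rebuilt position had a circular correlation of 0.931 and 0.925 with the deposited one. The maxima depended on the span. At 0.1 that of *Slbp* moved most, by 0.151π to 0.823π, behind *Nasp* and *Asf1b*, and at 0.5 that of *Nasp* moved by 0.127π. Under the other settings with both cultures none of the 8 members past the threshold moved by more than 0.0770π. The maximum of the flat *Asf1a* is loosely placed, at 0.653π as the mean of the cultures and at 0.850π with the share of cells. Of the 16 nearest genes, 8 were also found with 8 arcs; the rest were replaced by others with like r, so single names rest on the number of arcs. No paired analysis was possible because there is 1 group. Depth differs between the cultures, and shares of cells with a value differ with it.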
